A study of Mus musculus with 6 samples.

Results

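Wnt signaling genes were followed in RNA from sorted mouse mammary luminal progenitor cells with and without *Robo1*. The set was defined by gene symbol and by no value. It takes the Wnt ligands, the Frizzled receptors, the secreted Sfrp and Dkk inhibitors, the R-spondins and their Lgr receptors, the co-receptors *Lrp5* and *Lrp6*, and the intracellular genes *Ctnnb1*, *Axin1*, *Axin2*, *Apc*, *Tcf7*, *Tcf7l1*, *Tcf7l2*, *Znrf3* and *Rnf43*. It found 46 genes of 18537 in the table, and 33 of them had enough reads to be compared between genotypes. *Lef1* and the other symbols of these families are not analysed here.

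The study asked how loss of the receptor ROBO1 alters mammary progenitor cells. Luminal progenitors were sorted by flow cytometry as Lin−CD24loCD29+CD61+ cells from the mammary glands of adult nulliparous mice. *Robo1+/+* libraries gh03, gh09 and gh15 and *Robo1−/−* libraries gh06, gh12 and gh18 were each made from poly(A)+ RNA of 2 animals, so single animals are not resolved. The mice were littermates from *Robo1+/−* parents, no group received a treatment, and the deletion is carried by every cell of the *Robo1−/−* animals and not by luminal progenitors alone. Values are listed throughout in the order gh03, gh09 and gh15, then gh06, gh12 and gh18.

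Wnt proteins are secreted lipid-modified signals that bind a Frizzled receptor together with LRP5 or LRP6. In the absence of a signal, a complex built on AXIN and APC marks β-catenin (the product of *Ctnnb1*) for degradation; binding of a Wnt stops this, and β-catenin then acts with TCF factors in the nucleus. In the mammary gland, WNT4 is known as a signal sent by hormone-sensing luminal cells after progesterone. R-spondin 1 is a secreted signal too, and both act on neighboring cells.

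The libraries held from 9727191 reads (gh18) to 17433868 reads (gh09), and each value is a read count divided by 1 size factor per library. The smallest number of reads taken as detected, 3, corresponds to a normalized value between 2.35 in gh09 and 4.38 in gh18. This limit covers counting error only. Library gh18 stood apart from the rest. Its log2 deviation from the other libraries fell with the GC content of the transcript (Spearman's rho = −0.81 across 12531 genes, which are not independent replicates), and rho was between 0.17 and 0.61 for the other 5. In the tenth of genes richest in GC the median deviation of gh18 was −2.29. Results that rest on gh18 are therefore also given without it and after a correction for GC content.

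*Robo1* itself (kgCluster9753; NCBI37/mm9 chromosome 16, 72663394 to 73046340) was measured first, as a check of the labels. *Robo1+/+* libraries gave 289, 574 and 541 and *Robo1−/−* libraries 130.1, 214 and 177. Every *Robo1−/−* value was below every *Robo1+/+* value, with a log2 fold change of −1.39 (limma, unadjusted p = 0.0062, adjusted p = 0.86, standard error 0.36). Some *Robo1* RNA was thus still counted in the *Robo1−/−* libraries, at 37.1% of the *Robo1+/+* mean.

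Of the 13 genes of a luminal progenitor list, all 13 were tested. The most abundant was *Krt8*, whose product the study uses as a marker of luminal cells in general. *Cd24a*, which encodes a marker used for the sort, had *Robo1+/+* values of 10675, 14373 and 14034 and *Robo1−/−* values of 21142, 20715 and 19935. Its log2 fold change was 0.67 (limma, unadjusted p = 0.014, adjusted p = 0.86), 0.70 without gh18 and 0.40 with the GC correction, where it was not called (unadjusted p = 0.17 from limma). The 13 genes summed to 135279, 155782 and 155895 in the *Robo1+/+* libraries, and to 167469, 170207 and 91006 in those from *Robo1−/−* mice. *Krt8*, *Krt18*, *Krt19*, *Cd24a* and *Epcam* had the highest means over the 6 libraries, from 16711 (*Epcam*) to 35858 (*Krt8*). The sum therefore does not tell progenitors from other luminal cells. All 10 genes of a hormone-sensing luminal list were tested too, among them *Esr1*, *Pgr* and *Prlr*. The CD61− mature luminal cells were sorted apart, and whether this RNA came from such cells or from the progenitors themselves cannot be told from bulk RNA. The list summed to 52208, 59875 and 51853 in the *Robo1+/+* libraries, and to 73872, 61990 and 65794 in those from *Robo1−/−* mice, with *Prlr* the most abundant. Among basal or myoepithelial genes, 12 of 13 were tested, with *Oxtr* the most abundant and sums of 2939, 1243 and 1860 against 2108, 1276 and 1344. Fibroblast genes (6 of 10 tested, most abundant *Dcn*) summed to between 581 in gh12 and 1598 in gh15. The endothelial list (2 of 8 tested) summed to 2224, 1522 and 624 against 1126, 450 and 174, most of it *Vwf*. The log2 fold change of *Vwf* was −1.69 (limma, unadjusted p = 0.070, adjusted p = 0.86), with an unadjusted p of 0.048 from DESeq2. It was −0.98 without gh18, its lowest library, and −1.17 with the GC correction. The other tested gene, *Pecam1*, had 48.35, 70.54 and 38.46 against 55.24, 89.77 and 23.35. Its log2 fold change was −0.05, and 0.46 without gh18. Without *Vwf* the list summed to 57.25, 85.43 and 53.46 against 71.35, 92.52 and 33.57. *Cdh5*, *Kdr* and *Tie1* were at or near 0. The 7 leukocyte genes found summed to at most 29.2 in a library and the 3 adipocyte genes to at most 46.7.

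Between the genotypes, 2 of the 33 tested Wnt genes passed an unadjusted p of 0.05 from limma. *Sfrp1*, a secreted Wnt inhibitor, was higher in *Robo1−/−* luminal progenitors, and *Tcf7l1*, a TCF factor that acts mostly as a repressor, was lower. Over all 13692 tested genes the share was 1.69% (0.767% higher and 0.920% lower), so 2 of 33 is a small count against a small background. After adjustment over all tested genes, 0% of genes, and 0 of the Wnt genes, passed 0.05 in limma. The values of the genotypes did not overlap for 2 of the 33 genes, *Sfrp1* and *Lgr5*, both higher in *Robo1−/−* libraries, where 9.41% of all tested genes did not overlap (4.83% higher and 4.58% lower). In bulk RNA, a change in the number of cells that express a gene and a change in RNA per cell cannot be told apart.

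As a set, the tested Wnt genes had no common direction. Log2 fold changes were positive for 15 and negative for 18 genes, with a median of −0.085 against 0.0022 for all tested genes. With the GC correction the median was 0.11 and 21 genes were positive, while with the correction and without gh18 the median was −0.092. The correction left *Sfrp1* as the 1 Wnt gene called (1.57% of all genes called) and the 1 gene without overlap (6.56% of all genes). Without gh18, 2 were called, *Sfrp1* and *Rspo1* (4.20% of all genes), and the same 2 with the GC correction in addition (4.43%). Without gh06, 4 were called, *Sfrp1*, *Tcf7l1*, *Wnt4* and *Wnt5b* (6.44% of all genes). In recovered reads, edgeR called 2 (*Sfrp1* and *Tcf7l1*; 1.61% of all genes) and DESeq2 called 3, with *Lgr5* added (1.81%). With limma-voom and library weights, 5 were called, with *Rspo1* and *Wnt5b* in addition (12.0% of all genes).

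**Figure D1:**
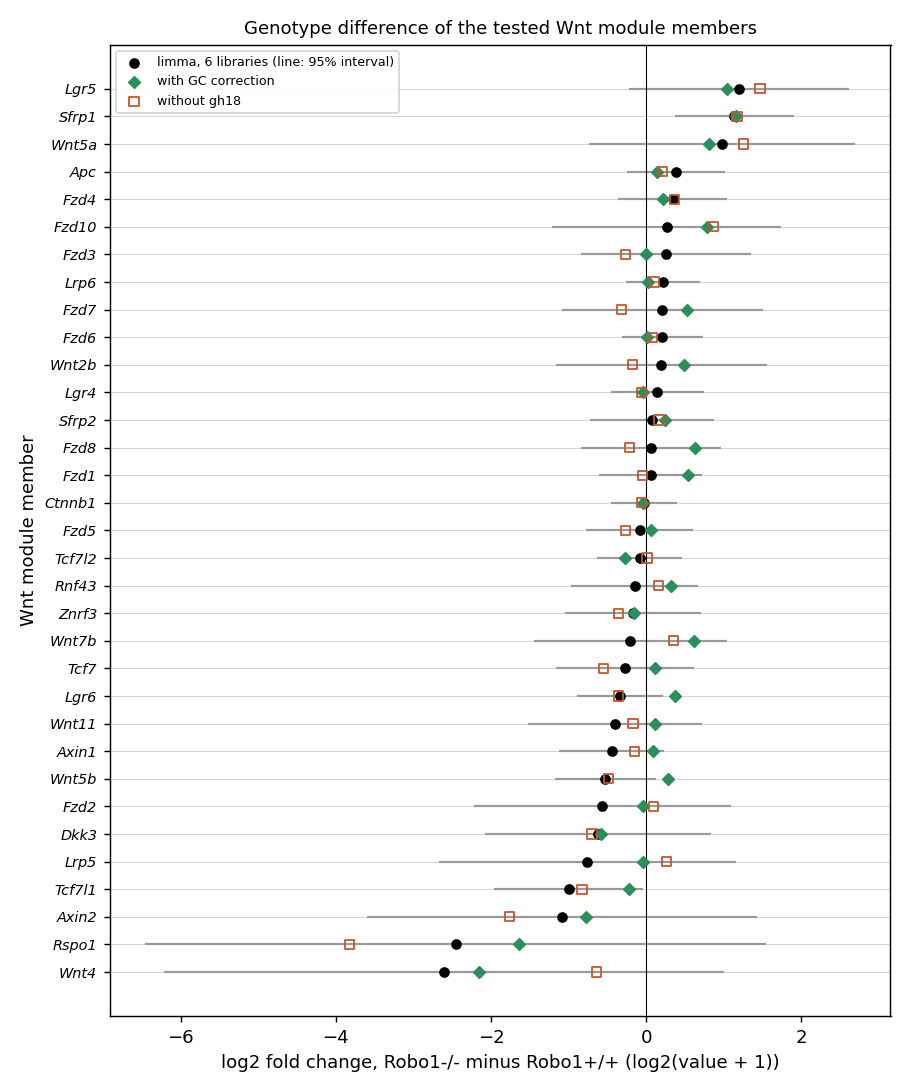
Log2 fold change (*Robo1−/−* minus *Robo1+/+*, on log2(value + 1)) of the 33 tested Wnt genes. Black points and grey lines are limma estimates from 6 libraries with 95% confidence intervals, green diamonds the estimates after GC correction and open squares those without gh18; the intervals of *Sfrp1* and *Tcf7l1* are the 2 that do not cross 0.

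Among the secreted inhibitors, *Sfrp1* (kgCluster24654; chromosome 8, 24521974 to 24560104) encodes a Frizzled-related protein that binds Wnts outside the cell. It had *Robo1+/+* values of 39.4, 44.7 and 37.5 and *Robo1−/−* values of 74.8, 114 and 86.1. The *Robo1+/+* libraries lay close together, at 40.5 ± 3.70 (SD, n = 3), and the lowest *Robo1−/−* library, gh06, was above all of them, with a *Robo1−/−* mean of 91.5 ± 19.9 (SD, n = 3). On the log2 scale the difference was 1.14 (limma, unadjusted p = 0.0096, adjusted p = 0.86, standard error 0.32). A two-sided exact permutation test gave p = 0.1, the smallest that 3 libraries against 3 allow. The difference did not rest on gh18, with log2 fold changes of 1.17 without that library and 1.16 after GC correction, and over the 17 alternatives it lay between 0.97 and 1.35. *Sfrp2*, a paralog with the same binding domain, had values of 78.9, 79.9 and 49.7 and 71.4, 81.5 and 62.7, which overlapped. *Dkk3*, a divergent member of the Dkk family, ranged from 11.8 in gh09 to 57.2 in gh03. The other 4 inhibitors found, *Dkk1*, *Dkk2*, *Sfrp4* and *Sfrp5*, had too few reads to be tested. *Dkk2* reached 73.3 in gh12, the highest value of any untested member, and was at 24.4 or less in the other 5 libraries.

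Of 14 Wnt ligand genes found, 6 were tested and none was called by limma with all libraries. The most abundant per kilobase of exon was *Wnt5b* (kgCluster21240; chromosome 6, 119382549 to 119494336), with *Robo1+/+* values of 919.9, 757 and 660.4 and *Robo1−/−* values of 723, 419.6 and 508. The groups overlapped through gh06, which exceeded gh15, while gh12 and gh18 were below every *Robo1+/+* library. Fitted over 6 libraries, the log2 fold change was −0.53 (limma, unadjusted p = 0.10, adjusted p = 0.86, standard error 0.28). It was −0.49 without gh18 and −0.39 with the GC correction and without gh18, but 0.28 with the GC correction alone, where gh18 had the highest corrected value of the 6. *Wnt5b* was called without gh06 (−0.74) and with limma-voom (−0.60). *Wnt7b* had values of 429, 842 and 838 and 788, 929 and 267. Its lowest library was gh18 and its highest gh12, both *Robo1−/−*, so the log2 fold change of −0.21 became 0.35 without gh18 and 0.62 with the GC correction.

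*Wnt4* (kgCluster18208; chromosome 4, 136833404 to 136855641), the ligand known to follow progesterone, had *Robo1+/+* values of 602, 546 and 360.2 and *Robo1−/−* values of 460.4, 213 and 4.38. The value in gh18 stands for 3 reads, at the limit of detection, while gh06 lay within the *Robo1+/+* range. The log2 fold change of −2.60 (limma, unadjusted p = 0.13, adjusted p = 0.86, standard error 1.53) rested on gh18 and was −0.65 without it. With all libraries it was −1.15 in edgeR and in DESeq2 and −0.92 in limma-voom. It was −3.86 without gh06, where *Wnt4* was called. With the GC correction it was −2.15, and −0.61 with the correction and without gh18.

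*Wnt5a* (kgCluster7147; chromosome 14, 29317936 to 29340633), a ligand that often signals without β-catenin, varied in the opposite sense between 2 libraries. *Robo1+/+* libraries gave 206, 627 and 1207 and *Robo1−/−* libraries 722, 2292 and 721, 11.1-fold apart between gh03, the lowest, and gh12, the highest. A log2 fold change of 0.98 (limma, unadjusted p = 0.22, adjusted p = 0.86, standard error 0.72) was fitted, and leaving out a library gave 0.29 (gh03), 0.42 (gh12), 1.09 (gh09), 1.25 (gh06 or gh18) and 1.56 (gh15). *Wnt11* and *Wnt2b* were tested at low levels, with ranges of 20.4 to 50.9 and 6.36 to 21.9. The 8 ligands that were not tested, *Wnt2*, *Wnt6*, *Wnt7a*, *Wnt8a*, *Wnt9a*, *Wnt9b*, *Wnt10a* and *Wnt10b*, did not exceed 13.1 in any library. RNA of the sorted cells therefore held mainly *Wnt5b*, *Wnt7b*, *Wnt5a* and *Wnt4* among the ligands, except that *Wnt4* was at 4.38 in gh18. Which of the sorted cells held this RNA cannot be told from bulk RNA.

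*Rspo1* (kgCluster17961; chromosome 4, 124663674 to 124686343) was the 1 R-spondin found. Its product binds LGR receptors and relieves Frizzled from degradation. *Robo1+/+* libraries gave 1316, 154 and 528 and *Robo1−/−* libraries 200.3, 4.58 and 582. The highest and the lowest library, gh03 and gh12, were 287-fold apart, and gh12 held 5 reads where the library had 15185303 in all. The other libraries overlapped, with gh09 near gh06 and gh15 near gh18 in value. The log2 fold change of −2.45 (limma, unadjusted p = 0.19, adjusted p = 0.86, standard error 1.69) was −3.83 without gh18, where it passed an unadjusted p of 0.05, −1.64 with the GC correction and −0.47 without gh12. With all libraries it was −1.38 in edgeR, −1.34 in DESeq2 and −4.89 in limma-voom, where *Rspo1* was called.

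All 3 R-spondin receptors were tested. *Lgr5* (kgCluster2585; chromosome 10, 114887367 to 115024836), a stem cell marker in several epithelia, had *Robo1+/+* values of 17.8, 36.1 and 43.2 and *Robo1−/−* values of 46.0, 158 and 48.2. All *Robo1−/−* values were above all *Robo1+/+* values, but the gap between gh15 (43.2) and gh06 (46.0) was small, and gh12 alone was far above the rest. This gave a log2 fold change of 1.19 (limma, unadjusted p = 0.087, adjusted p = 0.86, standard error 0.60), and the exact permutation p was again 0.1, the minimum. Leaving out gh12 lowered the estimate to 0.62. After GC correction the genotypes overlapped, with a log2 fold change of 1.04. *Lgr6* was the most abundant receptor of the 3 per kilobase, at 805, 712 and 583 and 623, 473 and 559, and *Lgr4* had 766, 661 and 653 and 623, 703 and 1017. Both varied less than 2-fold over the 6 libraries.

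Among the Frizzled receptors 9 of 10 were tested and none was called by limma with all libraries, and only *Fzd9* (at most 4.70) was not tested. *Fzd6*, the most abundant per kilobase, had *Robo1+/+* values of 1132, 1093 and 1107 and *Robo1−/−* values of 1013, 1359 and 1519, the highest in gh18. *Fzd10* (kgCluster19781; chromosome 5, 129106719 to 129109968) had 339.7, 828 and 432 and 1329, 616 and 257, with its highest value in gh06 and its lowest in gh18. The log2 fold change of *Fzd10* was 0.26 (limma, unadjusted p = 0.69, adjusted p = 0.91, standard error 0.62), 0.87 without gh18, 0.78 with the GC correction, −0.0092 without gh03 and −0.32 without gh06. No direction could thus be given for this receptor.

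*Fzd7*, a receptor linked to mammary stem cell activity, had values of 789, 292 and 489 and 439.6, 339.9 and 1160.0. *Fzd3* had 564, 394 and 375 and 346, 382 and 1068. Both were highest in gh18, where *Fzd3* was 3.08 times its lowest library. Log2 fold changes of *Fzd3* (0.25) and *Fzd7* (0.21) became −0.26 and −0.32 without gh18, and −0.00012 and 0.53 with the GC correction. *Fzd5* was measured at 421, 324 and 281 and 313, 250.1 and 410.0, *Fzd4* at 132, 107 and 157 and 139, 202 and 161, and *Fzd1* at 158, 119.9 and 129 and 140.4, 121 and 162. These 3 receptors varied by less than 2-fold between any libraries. *Fzd8* ranged from 30.2 to 59.8 and *Fzd2* from 4.38 to 29.3.

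The co-receptor genes *Lrp5* and *Lrp6* differed in how they followed gh18. *Lrp5* (kgCluster12225; chromosome 19, 3584825 to 3686564) had *Robo1+/+* values of 2851, 3931 and 3583 and *Robo1−/−* values of 5153, 3287 and 489. The low value in gh18 set the sign of the log2 fold change, which was −0.76 with all libraries (limma, unadjusted p = 0.38, adjusted p = 0.86, standard error 0.81) and 0.26 without gh18. With the GC correction it was −0.04; 58.6% of the bases of the *Lrp5* transcript are G or C. *Lrp6*, with a GC content of 46.0%, had 2919, 3086 and 2523 and 2937, 3156 and 3874, and gh18 was its highest library.

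*Rnf43* and *Znrf3* encode membrane E3 ligases that remove Frizzled receptors from the cell surface and are themselves known Wnt targets. *Rnf43* had *Robo1+/+* values of 323, 251 and 237 and *Robo1−/−* values of 336, 267 and 156. *Znrf3* had 402, 194 and 219 and 234, 173 and 293, with its highest value in gh03 and its lowest in gh12. For both genes, the genotypes overlapped.

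In the destruction complex, *Axin1* and *Axin2* encode related scaffolds with different regulation, since *Axin2* is a classical target of β-catenin and is used as its readout. *Axin1* had normalized values of 1528, 1683 and 1624 and 1559, 1347 and 791, with gh18 the lowest library. *Apc* had 3043, 4495 and 4330.2 and 5183, 3913 and 6482, the highest in gh18. *Axin2* (kgCluster4496; chromosome 11, 108781663 to 108812097) had *Robo1+/+* values of 182, 20.4 and 82.6 and *Robo1−/−* values of 48.3, 7.33 and 81.7. The spread of *Axin2* inside each genotype was larger than the difference between genotypes, and gh15 and gh18 had nearly the same value. Its log2 fold change was −1.09 (limma, unadjusted p = 0.34, adjusted p = 0.86, standard error 1.06), −0.77 with the GC correction, −1.76 without gh18 and −0.11 without gh12. No shift of *Axin2* with genotype beyond the replicate spread was thus measured, and the 95% confidence interval, from −3.60 to 1.43, is wide.

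*Ctnnb1* (kgCluster27337; chromosome 9, 120838334 to 120869625) was the most abundant Wnt gene and among the steadiest. It had *Robo1+/+* values of 12933, 12575 and 12995 and *Robo1−/−* values of 11588, 13131 and 13030.3, 1.13-fold apart from lowest to highest. A log2 fold change of −0.03 was fitted, with a 95% confidence interval from −0.46 to 0.40 (adjusted p = 0.96 from limma). These values are of RNA and do not give the amount or location of the β-catenin protein in the sorted cells. The study stained active β-catenin in the nuclei of organoids grown and differentiated in culture. It reports a higher nuclear signal in basal cells without *Robo1*, while the luminal signal did not differ significantly.

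The TCF genes are the DNA-binding partners of β-catenin. *Tcf7l1* (kgCluster20821; chromosome 6, 72576372 to 72739248) had *Robo1+/+* values of 251, 122 and 189 and *Robo1−/−* values of 134, 76.0 and 70.0. Library gh06 lay above gh09, so the groups overlapped, and the *Robo1−/−* mean was 93.2 ± 35.0 (SD, n = 3) against 187 ± 64.2 (SD, n = 3). The fitted log2 fold change was −1.0 (limma, unadjusted p = 0.042, adjusted p = 0.86, standard error 0.40). After GC correction it was −0.22 (unadjusted p = 0.69 from limma), with gh18 the highest of the 6 corrected values, and with the correction and without gh18 it was −0.74. The call was also lost without gh03 (−0.76), gh15 (−0.96), gh12 (−0.89) or gh18 (−0.83), always with the same sign. Before correction *Tcf7l1* was highest in gh03 and lowest in gh18, as were the basal genes *Krt5*, *Krt14*, *Krt17*, *Lgals7* and *Tagln*. The other basal genes tested did not have this order. *Acta2*, *Myh11* and *Mylk* were highest in gh03 but lowest in gh09, and *Vim* was lowest in gh12. *Oxtr*, the most abundant basal gene, was highest in gh18, *Cnn1* in gh06 and *Trp63* in gh15. The share of all genes with this order was not counted, and the part of basal genes in the difference of *Tcf7l1* was not tested. *Tcf7l2* had values of 1369, 923 and 1027 and 1143, 1057 and 899, and *Tcf7* had 163, 99.5 and 164 and 94.4, 94.4 and 169. Neither separated the genotypes.

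**Figure D2:**
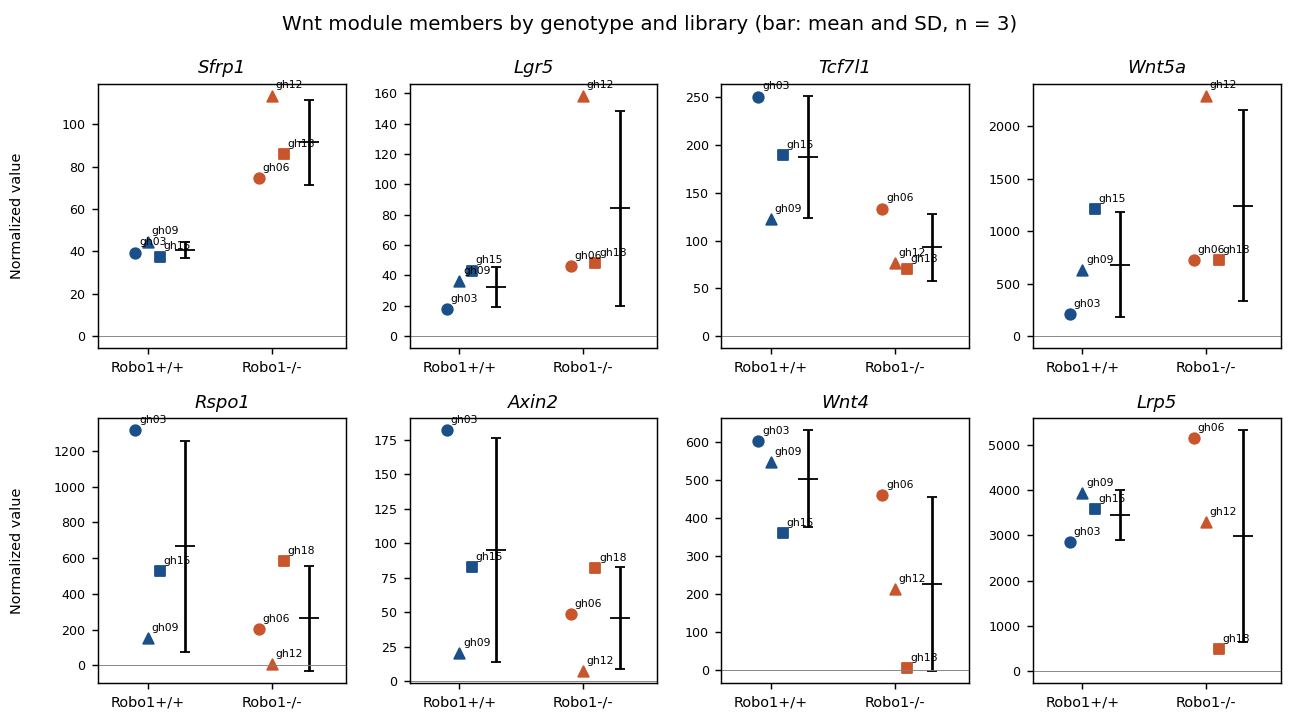
Normalized values of 8 Wnt genes in each library, on linear axes that include 0, by genotype. Points are libraries (each of 2 animals) and bars the mean and SD (n = 3); *Sfrp1* and *Lgr5* do not overlap between genotypes, *Rspo1* and *Axin2* are highest in gh03 and lowest in gh12, and *Wnt4* and *Lrp5* are lowest in gh18.

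Levels of different genes were compared per kilobase of exon. *Ctnnb1* led with a mean over the 6 libraries of 2492 per kilobase, and its lowest library was above the highest of *Lrp5* (mean 622), the next in order. Then came *Axin1* (371), *Lrp6* (314), *Fzd6* (295), *Apc* (290), *Wnt5b* (253), *Rspo1* (239), *Fzd10* (195), *Lgr6* (164) and *Wnt7b* (155). The mean of *Rspo1* rested on gh03 and was 152 per kilobase without it. Among the 32 pairs of neighbors in the order of the 33 tested genes, the ranges of 30 overlapped, so most neighbors did not differ beyond the spread over libraries. The 2 gaps were those between *Ctnnb1* and *Lrp5* and between *Fzd1* and *Sfrp1*. *Sfrp1* (15.1), *Axin2* (12.8) and *Lgr5* (5.68, and 3.73 without gh12) were thus among the less abundant tested genes. Per kilobase of the longest transcript, *Lgr5* was at 12.2.

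**Figure D3:**
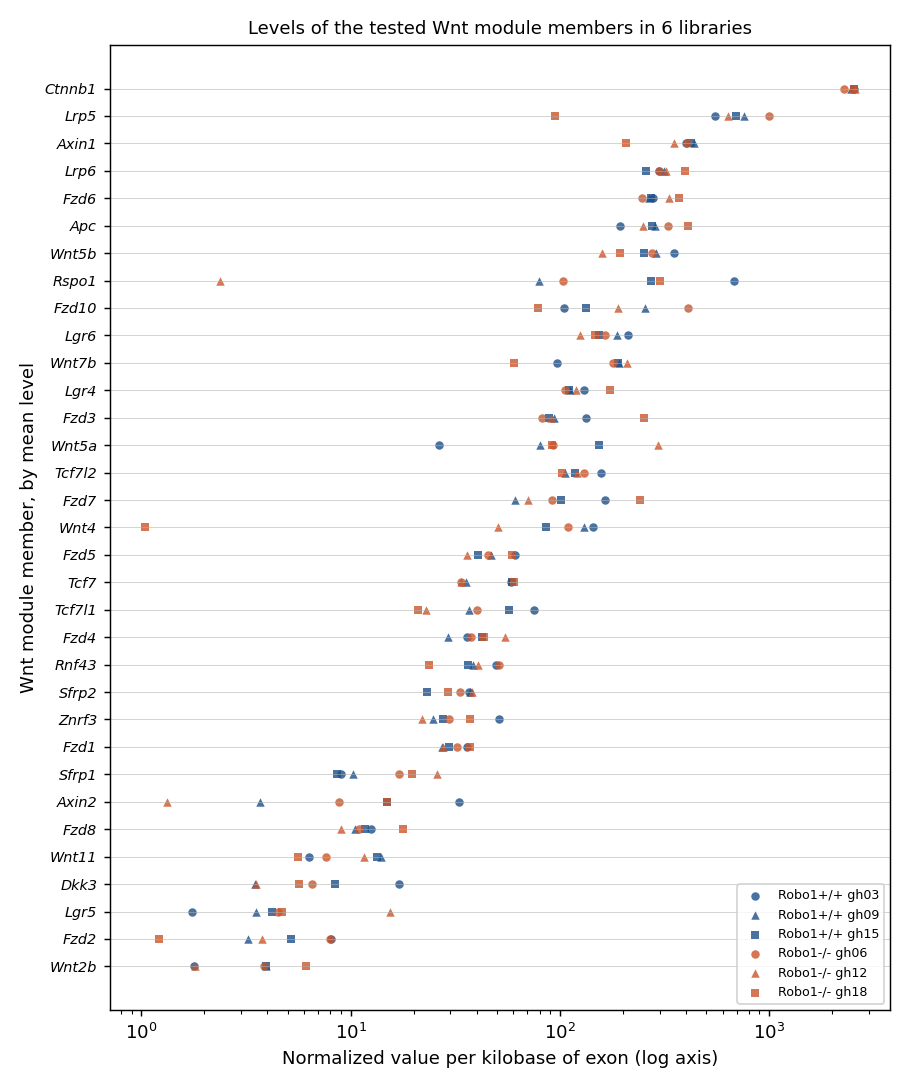
Normalized value per kilobase of exon (log axis) of the 33 tested Wnt genes in 6 libraries, ordered by the mean. Blue points are *Robo1+/+* and orange points *Robo1−/−* libraries; *Ctnnb1* lies above all other members in each library, and *Rspo1* in gh12 and *Wnt4* in gh18 lie far from the other libraries of the same gene.

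Library gh03 (*Robo1+/+*) and library gh12 (*Robo1−/−*) were the extremes for several genes, which was noticed after the values were seen. Of the 33 tested genes, 6 (*Axin2*, *Fzd5*, *Lgr6*, *Rspo1*, *Wnt5b* and *Znrf3*) were highest in gh03 and lowest in gh12, where 3.00% of all tested genes were. *Lgr5* and *Wnt5a* showed the reverse order, with gh12 highest and gh03 lowest, as did 5.08% of all tested genes. After GC correction, 2 of the 33 genes (*Axin2* and *Znrf3*) were highest in gh03 and lowest in gh12, with 6.10% of all genes, and *Lgr5* and *Wnt5a* again had the reverse order, with 6.77%. The other 4 genes (*Fzd5*, *Lgr6*, *Rspo1* and *Wnt5b*) were still lowest in gh12 after the correction, with gh18 highest and gh03 next.

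Of the 45 markers tested, 3 were highest in gh03 and lowest in gh12 (*Calca*, *Tnfsf11* and the basal gene *Vim*), and 5 had the reverse order (*Esr1*, *Foxa1*, *Pparg* and the luminal progenitor genes *Aldh1a3* and *Itgb3*, the last of which encodes CD61). In the hormone-sensing list, *Tnfsf11*, which encodes the progesterone-induced signal RANKL, had *Robo1+/+* values of 1660.3, 199 and 124 and *Robo1−/−* values of 108, 0.92 and 439. *Calca*, the calcitonin gene, had 5518, 578 and 1477 and 125, 3.66 and 943, with a log2 fold change of −4.35 (limma, unadjusted p = 0.0503, adjusted p = 0.86) and a call with the GC correction (−4.43) and without gh18 (−6.11). In DESeq2 (−2.81) and edgeR (−2.86) *Calca* was not called. *Esr1* and *Foxa1* ran from 1346 and 1752 in gh03 to 2694 and 2625 in gh12, *Aldh1a3* and *Itgb3* from 1972 and 387 to 6865 and 1317, and the sum of the hormone-sensing list was neither highest in gh03 nor lowest in gh12. *Prom1* and the progesterone receptor gene *Pgr* were also lowest in gh03, *Pgr* with 1721, 3003 and 3394 and 5481, 4124 and 3752, no overlap and an unadjusted p of 0.044 from limma (adjusted p = 0.86). The basal list was also highest in gh03, at 2939, but in gh12 its sum of 1276 was close to the 1243 of gh09. The part of these markers in the differences of *Rspo1*, *Axin2* and *Wnt4* was not tested, and the labels used here give no stage of the estrous cycle.

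Beyond these genes, a list of 101 other Wnt pathway symbols was examined. Of the 94 genes found under 92 of the symbols, 75 were tested by limma, and 0 passed an unadjusted p of 0.05 in either direction, against 1.69% of all tested genes. With DESeq2 the count was 0 of 94 (1.81% of all genes), and with edgeR it was 1 of 75 (*Nkd2*; 1.61%). Other settings of limma gave 1 of 74 with the GC correction (*Celsr2*; 1.57%), 3 of 76 without gh18 (4.20%), 9 of 78 without gh06 (6.44%) and 9 of 75 with limma-voom (12.0%). Their median log2 fold change was −0.17 (32 positive and 43 negative) and 0.01 after GC correction. The genotypes did not overlap for 6 of the 75, 1 higher (*Rnf146*) and 5 lower in *Robo1−/−* libraries, against 9.41% of all tested genes (4.83% higher and 4.58% lower). The total and the 1 higher gene were below these shares and the 5 lower genes above theirs.

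*Nkd2*, a feedback inhibitor that binds Dishevelled, had *Robo1+/+* values of 30.5, 17.2 and 22.5 and *Robo1−/−* values of 9.21, 11.9 and 13.1. It was the nearest of the list to the threshold, with a log2 fold change of −0.95 (limma, unadjusted p = 0.052, adjusted p = 0.86, standard error 0.41), −1.05 without gh18 and −0.75 with the GC correction. *Nkd2* was called in 5 of the 17 alternatives, namely without gh18, with edgeR, with limma-voom, with TMM scaling and with a pseudocount of 5. The other 4 had their lowest value in gh18. *Celsr2*, a planar polarity cadherin, had 3916, 3784 and 4173 and 3640.3, 2636 and 725, and *Bcl9*, a co-activator of β-catenin, had 472, 458 and 509 and 429, 342 and 142. Their log2 fold changes were −1.05 and −0.80, −0.35 and −0.32 without gh18, and −0.35 and −0.40 with the GC correction. *Dvl1*, which relays the signal from Frizzled, had 1655, 1667 and 1674 and 1620.5, 1162 and 430.5. The kinase gene *Gsk3a* had 1471, 1535 and 1663 and 1402, 1295 and 684. The log2 fold changes of *Dvl1* (−0.84) and *Gsk3a* (−0.53) kept their sign without gh18 (−0.28 and −0.21) and with the GC correction and without gh18 (−0.16 and −0.10), and changed it with the GC correction alone (0.064 and 0.30). With uncorrected values of all libraries, none of these 4 reached an unadjusted p of 0.05 in limma, while *Celsr2* did with the GC correction (unadjusted p = 0.043 from limma) and *Celsr2*, *Bcl9* and *Dvl1* did with limma-voom and, in limma, without gh06.

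The Notch ligand gene *Jag1* was examined because the study names it as a target of β-catenin in basal cells. In luminal progenitors it had *Robo1+/+* values of 679, 717 and 658 and *Robo1−/−* values of 627, 969 and 509. The highest and the lowest value were both in *Robo1−/−* libraries, gh12 and gh18. Its log2 fold change was −0.02, with a 95% confidence interval from −0.68 to 0.65 (adjusted p = 0.99 from limma), and it was 0.19 without gh18.

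Sequences upstream of transcription starts were searched for the core of the TCF motif, TCAAAG, on both strands (CTTTGA on the other). RefSeq promoters (GRCm38.p6, a later build than that of the values) were matched by symbol for 29 of the 46 genes, and the 250 bases before each start were used. The core was present before 4 of 36 starts of these genes (11.1%), in *Dkk1*, *Fzd1*, *Wnt11* and *Wnt5b*, and before 13.8% of all 32851 starts. *Rspo1* and *Axin2* are shown because their values were the widest apart between gh03 and gh12 among the 33 tested genes, and *Wnt5b* because it was the 1 gene of the 6 highest in gh03 and lowest in gh12 with the core in a window used here. The windows lie at chr4:124986180-124986429 (*Rspo1*, plus strand), chr11:108920099-108920348 (*Axin2*, plus strand) and chr6:119449387-119449636 (*Wnt5b*, minus strand, 1 of 3 starts). Capitals mark the core, which begins 71 bases before that start of *Wnt5b*; the windows of *Rspo1* and *Axin2* do not hold these letters. A match is a description of the sequence and no evidence of binding.
Rspo1: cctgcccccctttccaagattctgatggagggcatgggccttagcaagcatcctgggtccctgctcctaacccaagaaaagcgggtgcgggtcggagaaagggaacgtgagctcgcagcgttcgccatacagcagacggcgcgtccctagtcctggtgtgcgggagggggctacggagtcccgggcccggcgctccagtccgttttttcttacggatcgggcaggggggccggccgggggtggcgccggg
Axin2: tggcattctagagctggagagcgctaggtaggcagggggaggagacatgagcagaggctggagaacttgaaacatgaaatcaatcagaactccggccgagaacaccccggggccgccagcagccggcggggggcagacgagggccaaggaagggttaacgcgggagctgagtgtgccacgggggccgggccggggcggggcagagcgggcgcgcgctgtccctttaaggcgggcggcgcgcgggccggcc
Wnt5b: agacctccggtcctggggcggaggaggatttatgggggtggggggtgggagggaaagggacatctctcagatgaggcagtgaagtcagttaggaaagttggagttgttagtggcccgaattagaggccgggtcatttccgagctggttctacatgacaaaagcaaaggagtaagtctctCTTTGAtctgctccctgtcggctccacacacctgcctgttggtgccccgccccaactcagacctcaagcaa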

How the data were processed

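Poly(A)+ RNA from 3 *Robo1+/+* and 3 *Robo1−/−* libraries was used, grouped by the genotype in the labels. The authors deposited a normalized signal per known-gene cluster, namely read counts divided by 1 size factor per library (DESeq). According to the study's methods and processing notes, reads on repeat elements were removed with bowtie2 and the rest mapped to NCBI37/mm9 with TopHat. The counting tool and its use of strand are not given in the sources used here, so overlapping and antisense genes cannot be separated.

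Whole reads were recovered for 100% of values in each library, with 1 read worth between 0.784 and 1.46 and no value further than 0.0058 from a whole number of reads times that. Genes kept by filterByExpr of edgeR (version 4.0.16) on these reads were tested with limma (version 3.58.1, R 4.3.3) after adding 1 and taking log2, with trended empirical Bayes moderation and p-values adjusted by Benjamini-Hochberg over 13692 genes. A gene is called when its unadjusted p is under 0.05. The scale understates changes of genes with few reads. Alternatives were DESeq2 (version 1.42.0), edgeR's quasi-likelihood test and limma-voom with library weights on recovered reads, TMM and upper-quartile scaling, pseudocounts of 0.5 and 5, no filter, a mean of at least 10, each library left out, and a GC correction that subtracts a lowess curve (span 0.3) on transcript GC content from each library's log2 deviations, with and without gh18. Counts of extreme libraries, and of genes without overlap under other settings, were chosen after the values were seen. The script was tested on simulated data.

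Positions, exon lengths and GC content come from GENCODE M1 (NCBI37), matched by symbol for 89.0% of clusters. Values in all libraries are given for members with a mean of at least 50, and for tested members called or without overlap. Other pathway genes are named when called by limma with all libraries and uncorrected values, or without overlap and with an absolute log2 fold change of at least 0.5, and genes called only under alternatives are counted. *Jag1* and *Robo1* are named in any case. The members follow from a rule on symbols and the lists were fixed by name, both with earlier results of these data known.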

Additional observations from a re-analysis of the deposited data

How the results depend on the processing

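*Sfrp1* was called and higher in *Robo1−/−* libraries, and *Robo1* called and lower, under all 17 alternatives run. Among all tested genes, 231 were called, against 415 without a filter, 566 with the GC correction and without gh18, 1641 with limma-voom and between 117 and 903 with each library left out. Those past an adjusted p of 0.05 numbered 0 with limma and 1 with DESeq2. The number of Wnt genes called was 2, against 1 with the GC correction, 5 with limma-voom and between 1 and 4 with each library left out. Genotypes did not overlap for 2 Wnt genes, for 1 after GC correction (6.56% of all genes) and for between 3 and 11 with each library left out (14.1% to 30.3% of all genes, the highest without gh06 for both). The median log2 fold change of the tested Wnt genes was 0.11 with the GC correction, −0.092 with it and without gh18, and negative under every other alternative.

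The sign of the log2 fold change differed for 10 of the 33 tested Wnt genes with the GC correction (31.3% of all genes), 11 without gh18 (33.6%), 10 with both (38.7%), 8 with limma-voom (27.5%) and 0 with edgeR or DESeq2 (4.37% and 4.34%). Among the single genes followed under all alternatives, the GC correction changed it for *Wnt5b* (0.28), *Wnt7b* (0.62), *Dvl1* (0.064) and *Gsk3a* (0.30), and with it and without gh18 it changed for *Wnt7b* (0.45), *Lrp5* (0.34) and *Jag1* (0.16). With limma-voom it changed for *Wnt7b* (0.17) and *Jag1* (0.34), and *Jag1* was 0.036 with DESeq2 and 0.029 with edgeR. With each library left out, the log2 fold change lay between −0.55 and 0.35 for *Wnt7b*, −1.43 and 0.26 for *Lrp5*, −0.32 and 0.87 for *Fzd10*, −0.063 and 0.028 for *Ctnnb1*, and −0.28 and 0.19 for *Jag1*. In edgeR, DESeq2 and limma-voom, *Lrp5* was −0.21, −0.21 and −0.034, and *Axin2* −1.08, −1.05 and −2.15. The cause of these changes was not tested. Per kilobase of the longest transcript in place of all exons, 5 of the 33 tested genes moved by more than the SD over libraries, namely *Ctnnb1* (3508), *Apc* (371), *Tcf7l2* (249), *Rnf43* (60.7) and *Lgr5* (12.2). With 3 libraries per genotype, only *Sfrp1* among the members kept its call under all alternatives, and genes with fewer than 3 reads in a library could not be told from absence.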
